A study of Mus musculus with 4 samples.

Results

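The genes described here build and serve the primary cilium and lie outside the intraflagellar transport complex A (IFT-A). They are 40 genes, chosen by name from the 23537 genes of the deposited RNA table. Their RNA was compared between *Mbd4*-/- (KO) and *Mbd4*+/+ (WT) mouse embryonic fibroblasts (MEFs). These connective tissue cells were isolated from embryos of strain C57BL/6 at day 12.5 post coitum. Total RNA of subconfluent primary cultures was freed of ribosomal RNA and sequenced with its strand kept, in 2 libraries for each genotype. No library received a treatment that the labels name. The KO cells came from *Mbd4*-/- mice, and the gene codes for a DNA glycosylase that removes mismatched thymine or uracil opposite guanine at CpG sites. The libraries of a genotype are described as independent samples, but how many embryos or cultures they stand for was not stated in the sources used here. The p-values therefore reflect only how far these samples differ from each other, and that spread may be technical.

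The libraries held 39108275 to 47567835 counts, and 15538 genes passed edgeR's filter on low counts. Levels are given as CPM, the customary unit of counts relative to the scaled size of their library. Across genes, which are not independent replicates, log2 CPM correlated at 0.994 or more within a genotype and at 0.923 to 0.924 across genotypes. *Mbd4* itself kept 373 and 302 counts in KO against 663 and 630 in WT, a log2 fold change (KO over WT) of -0.99 (SE 0.11, edgeR adjusted p = 2.80e-06). Counts of *Mbd4* are summed over the whole gene, and the disrupted part was not stated in the sources used here. *Ift122*, an IFT-A gene, lies directly beside *Mbd4* on chromosome 6, with the end of *Mbd4* and the start of *Ift122* both near 1.15803e+08 in mm9. It was at 7 and 3 counts in KO against 1002 and 944 in WT, so that the KO cells also held little RNA of a cilium gene outside the 40. The cause of this loss and its part in the values below were not tested. None of the 40 genes lies on chromosome 6. The general fibroblast genes *Col1a2*, *Vim* and *Fn1* were abundant in every library but lower in KO, with log2 fold changes of -0.36, -0.59 and -0.89. *Dcn*, coding for the matrix proteoglycan decorin, was at 5 and 7 counts in KO and at 1349 and 1123 in WT. Of 12 fibroblast genes listed, 7 were lower in KO at an adjusted p of 0.05 (32.5% of all genes tested) and 1 was higher (34.3%).

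The primary cilium is a single antenna of microtubules that most resting fibroblasts raise from the mother centriole and take down again before they divide. Trains of IFT-B and IFT-A proteins carry cargo along it, driven outward by kinesin-2 and back by dynein-2, while the BBSome carries membrane proteins and the transition zone at the base acts as a gate. In fibroblasts the organelle is best known as the place where Hedgehog signals are received. Transcription factors of the RFX family, which bind a palindromic DNA element called the X-box, are known to drive many cilium genes.

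Most of these genes had more RNA in the KO cells. Of the 39 genes that passed the filter, 25 (64.1%) were higher in KO at an adjusted p of 0.05, against 34.3% of all genes tested, and 4 (10.3%) were lower, against 32.5% of all genes. The remaining 10 did not pass the test. In either direction 66.8% of all genes passed, so that a change past the test was common in these libraries. The shares of 34.3% higher and 32.5% lower over all genes apply also to each group and list counted below. Differences of at least 0.5 on the log2 scale were reached by 18 genes that were higher (23.1% of all genes) and by 0 that were lower (20.0% of all genes). In bulk RNA, fewer cells of a type and less RNA per cell cannot be told apart. The kinesin gene *Kif17* was left out of the fit by the filter, with 5 and 15 counts in KO and 4 and 2 in WT.

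The median log2 fold change of the 39 genes was 0.47, against 0.02 over all genes tested. Single genes ranged from -0.45 (*Bbs5*) to 1.98 (*Mks1*), and 34 of the 39 lay above 0, against 51.5% of all genes. Their changes were of ordinary size for these libraries, since the median absolute log2 fold change was 0.47 for the cilium genes and 0.47 for all genes, and 9.17% of all genes moved further than *Mks1*. Both KO libraries lay above both WT libraries (in CPM) for 31 genes (43.0% of all genes) and below both for 5 (39.8% of all genes), and the genotypes overlapped for *Ift88*, *Hspb11* and *Bbs7*. Replicate libraries differed by a median of 0.08 on the log2 scale in the KO group and 0.09 in the WT group over these genes, and by at most 0.28 (*Hspb11*, KO) and 0.30 (*Mks1*, WT).

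When the counts were scaled by library totals alone, in place of TMM (edgeR's trimmed mean scaling), 32 genes were higher and 1 lower, and the calls over all genes moved from 5335 higher and 5045 lower to 6628 and 3964. That scaling lifted the median of all genes from 0.02 to 0.17, and the median of the cilium genes from 0.47 to 0.62. The distance between both medians was 0.44 under every scaling, but a scaling shifts all genes by nearly the same amount and so cannot test this distance. Under the other filters, tools and left-out libraries tried it was 0.41 to 0.50. The count of 4 lower genes rests in part on KO replicate 2, without which 2 genes were lower.

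**Figure D1:**
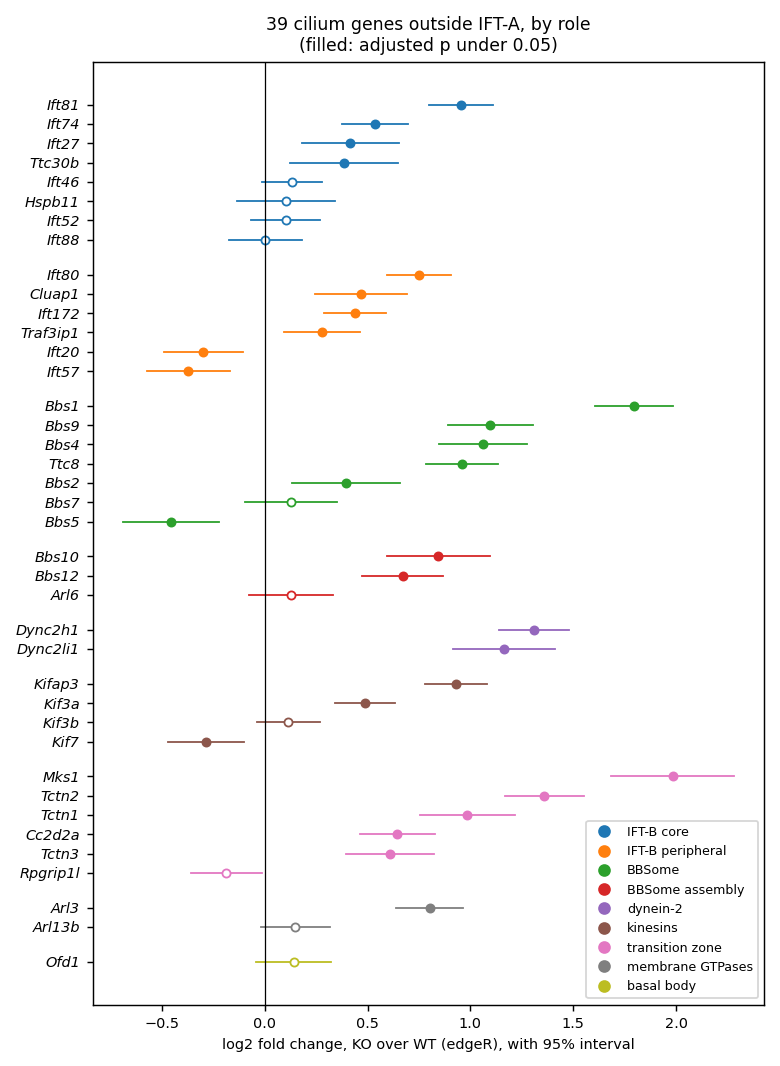
Log2 fold change (KO over WT, edgeR) of each of the 39 cilium genes tested on the horizontal axis, with its 95% interval, grouped and coloured by role. Filled points passed an adjusted p of 0.05; 25 of them lie right of 0 and 4 left of it, and the BBSome, dynein-2 and transition zone groups reach furthest to the right.

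**Figure D2:**
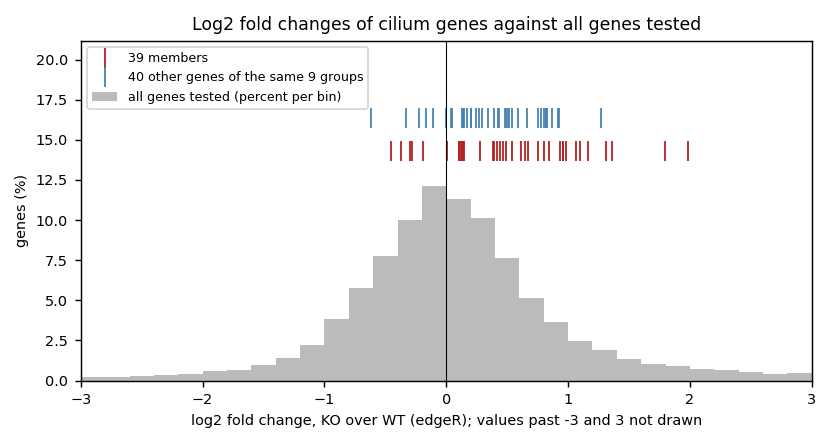
Percent of all 15538 genes tested in each bin of log2 fold change (KO over WT, grey), with a red tick for each of the 39 cilium genes and a blue tick for each of 40 other genes of the same 9 groups. Both sets of ticks lie mainly right of 0, with medians of 0.47 and 0.36, inside the range of the grey distribution.

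The X-box was searched in the RefSeq promoters of build GRCm38.p6, windows of 300 bases that run from 250 bases before to 50 after a transcription start. A promoter was found for 36 of the 40 genes, all but *Ift80*, *Ift81*, *Ttc30b* and *Dync2li1*. The box was read as 14 bases with 10 fixed letters on either strand, with up to 1 mismatch allowed. It occurred in 7 of the 36 genes (19.4%), against 2.89% of all 27025 genes with a promoter and 3.51% of the 9861 of them tested here. Of these 7 genes, 5 were higher in KO, 1 was lower (*Ift57*) and 1 did not pass the test (*Bbs7*), while 21 of all 36 genes with a promoter were higher. The box occurred in 23.8% of the higher genes with a promoter (5 of 21) and in 25.0% of the lower ones (1 of 4). Among those that did not pass it occurred in 1 of 10. With only 4 lower genes these shares cannot show whether the box goes with a direction, and this was not tested. These 7 boxes are shown in capitals with up to 8 flanking bases on each side, in order of log2 fold change. The box is the element best known from cilium genes:
Mks1: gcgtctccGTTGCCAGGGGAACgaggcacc
Bbs1: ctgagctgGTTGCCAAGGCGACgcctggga
Tctn2: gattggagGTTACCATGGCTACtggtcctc
Bbs4: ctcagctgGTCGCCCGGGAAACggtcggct
Tctn1: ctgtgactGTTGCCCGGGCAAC
Bbs7: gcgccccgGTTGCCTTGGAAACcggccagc
Ift57: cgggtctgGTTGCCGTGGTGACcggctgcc

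In GRCm38.p6 these windows lie at chr11:87853183-87853212 (plus strand, *Mks1*), chr19:4906605-4906634 (minus, *Bbs1*), chr5:124598679-124598708 (plus, *Tctn2*), chr9:59353464-59353493 (minus, *Bbs4*), chr5:122264411-122264432 (minus, *Tctn1*), chr3:36613489-36613518 (minus, *Bbs7*) and chr16:49699199-49699228 (plus, *Ift57*). The box of *Mks1* began 24 bases before the start and had 0 mismatches, that of *Tctn2* began 62 bases before it with 1 mismatch, and that of *Bbs1* began 1 base after it with 1 mismatch. In *Bbs4* and *Tctn1* the box began 23 and 36 bases after the start, and the window of *Tctn1* ends where the promoter sequence does. *Bbs7*, which did not pass the test, had its box 121 bases before the start, and *Ift57*, which was lower, had it 87 bases before. A shorter motif, GTTGCCA on either strand, occurred in 8 of the 36 genes (22.2%), against 5.02% of all genes and 4.44% of those tested here, and it lies inside the box in *Mks1* and *Bbs1*. These 8 genes are *Mks1*, *Bbs1*, *Tctn2*, *Dync2h1*, *Tctn3*, *Ift27* and *Traf3ip1*, all higher in KO, and *Ift88*, which did not pass the test. The E2F motif TTCGCGC, on either strand, was found in 1 gene (2.78%), outside the box of *Mks1*, against 1.81% and 3.50%. A match describes the sequence and does not show that a factor binds there.

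The transition zone, the gate at the base of the cilium, had 5 of 6 genes higher, 0 lower and a median log2 fold change of 0.82. *Mks1* (mm9 chr11:87666717-87677305, plus strand), coding for a B9-domain protein of the gate that is mutated in Meckel syndrome, had 638 and 533 counts in KO and 134 and 151 in WT, or means of 13.2 and 3.34 CPM. The KO libraries stood 3.95 times above the WT libraries without overlap (log2 fold change 1.98, SE 0.14, adjusted p = 2.85e-08). Per length of exon *Mks1* was the scarcest of the 39 genes in WT, at 0.826 CPM per kb, and it reached 3.26 CPM per kb in KO.

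The tectonics, secreted and membrane proteins of the same gate, all passed the test. *Tctn2* (mm9 chr5:125048758-125077658, plus strand) had 1356 and 1155 counts in KO against 473 and 471 in WT, a log2 fold change of 1.36 (SE 0.09, adjusted p = 1.59e-08). *Tctn1* had 746 and 704 counts in KO and 368 and 341 in WT (log2 fold change 0.99, SE 0.11, adjusted p = 2.29e-06), and shares exon sequence with the opposite-strand gene *Hvcn1*. In each of these genes both KO libraries were above both WT libraries, including *Tctn3* with 863 and 689 counts in KO and 520 and 461 in WT (log2 fold change 0.61, SE 0.10, adjusted p = 9.91e-05). *Cc2d2a*, coding for a coiled-coil protein of the gate, had the highest level per length in WT of these 6 gate genes (5.57 CPM per kb) and rose to 8.70 CPM per kb. Its counts were 2911 and 2337 in KO and 1557 and 1667 in WT (log2 fold change 0.65, SE 0.08, adjusted p = 1.39e-05). *Rpgrip1l*, a scaffold at the gate's base, did not pass the test, with 24.7 and 23.4 CPM in KO and 26.6 and 28.2 in WT (log2 fold change -0.19, edgeR adjusted p = 0.0523). Its groups did not overlap, and without WT replicate 1 the value was -0.23 with an adjusted p of 0.0285.

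Other genes of the gate, taken from a list of 13 further transition zone genes, were mostly higher as well. Of these 13, 11 were higher and 0 lower, with a median log2 fold change of 0.76. The largest were *Tmem107* (1.27), *B9d2* (0.93) and *Tmem216* (0.86), membrane and B9-domain proteins that work with MKS1.

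**Figure D3:**
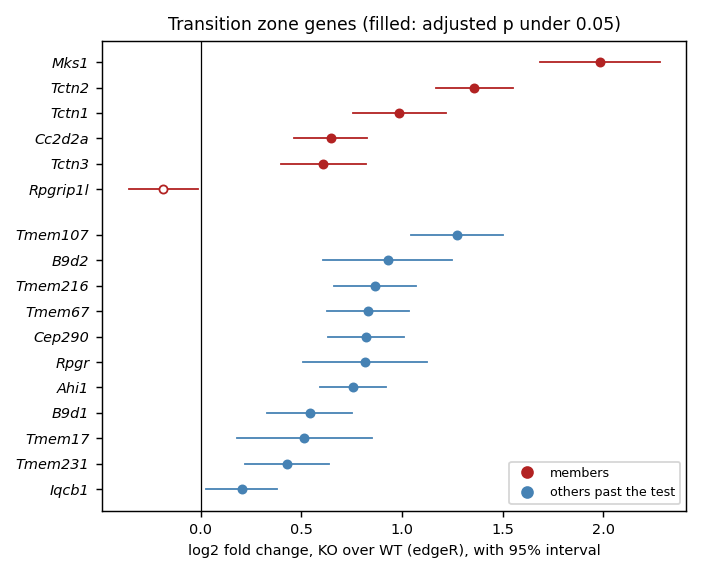
Log2 fold change (KO over WT, edgeR) with its 95% interval for transition zone genes, the 6 described here in red and, in blue, the 11 of 13 others that passed the test. Filled points passed an adjusted p of 0.05, and all of them lie right of 0, while the open point of *Rpgrip1l* lies left of it.

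The BBSome, a coat that takes membrane receptors out of the cilium, had 5 of 7 subunit genes higher, 1 lower and a median log2 fold change of 0.96. *Bbs1* (mm9 chr19:4886898-4906627, minus strand), the subunit through which ARL6 binds the coat, had 1440 and 1263 counts in KO and 388 and 364 in WT. The means of 30.5 and 8.77 CPM differ 3.47 times, far beyond the distance between replicates (log2 fold change 1.80, SE 0.09, adjusted p = 9.53e-10). *Bbs9*, a large scaffold subunit, had 1359 and 1064 counts in KO and 535 and 554 in WT (log2 fold change 1.10, SE 0.10, adjusted p = 2.76e-07). *Bbs4*, a subunit of tetratricopeptide repeats, had 991 and 789 counts in KO and 434 and 388 in WT (log2 fold change 1.06, SE 0.10, adjusted p = 5.24e-07). *Ttc8*, the gene of the BBS8 subunit with the highest level per length in WT of these 7 genes (5.97 CPM per kb), had 1535 and 1298 counts in KO and 707 and 698 in WT. It reached 11.6 CPM per kb in KO (log2 fold change 0.96, SE 0.08, adjusted p = 2.14e-07), and for all of these subunits both KO libraries lay above both WT libraries.

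The remaining BBSome subunits moved less or the other way. *Bbs2*, a subunit with a propeller fold like that of BBS1, was higher by 0.40 (SE 0.12, adjusted p = 0.0110), but without KO replicate 1 the difference was 0.31 with an adjusted p of 0.137. *Bbs7*, whose protein shares that fold, had 16.1 and 13.9 CPM in KO and 13.95 and 13.5 in WT, with overlapping groups and a log2 fold change of 0.13 (95% interval -0.10 to 0.35). *Bbs5*, a subunit that binds membrane lipids, was lower, with 433 and 371 counts in KO and 550 and 514 in WT. Both KO libraries lay below both WT libraries, with means of 9.06 and 12.4 CPM (log2 fold change -0.45, SE 0.11, adjusted p = 0.00212), and it was the 1 gene that remained lower under library totals. The BBSome subunits thus did not share a direction. *Bbip1*, the remaining subunit of the coat and not among the 40, was higher by 0.39.

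*Bbs10* and *Bbs12*, which code for chaperonin-like proteins that help assemble the BBSome, were both higher. *Bbs10* had 668 and 566 counts in KO and 320 and 342 in WT (log2 fold change 0.84, SE 0.12, adjusted p = 2.36e-05). *Bbs12* had 1113 and 884 counts in KO and 618 and 590 in WT (log2 fold change 0.67, SE 0.09, adjusted p = 1.95e-05), and it shares exon bases with *Cetn4* and *Fgf2*. The KO and WT libraries did not overlap in either gene. The third chaperonin gene, *Mkks*, is not among the 40 and was lower, at -0.22 (edgeR adjusted p = 0.0203). *Arl6*, the GTPase that recruits the coat to membranes at 7.41 CPM per kb in WT above *Bbs10* and *Bbs12* per length, had 846 and 665 counts in KO and 689 and 644 in WT. Its log2 fold change of 0.13 did not pass the test (SE 0.09, edgeR adjusted p = 0.253, 95% interval -0.08 to 0.33).

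Dynein-2, the motor that carries trains back to the cell body, had both of its genes higher. *Dync2h1* (mm9 chr9:6928503-7184446, minus strand), the motor's heavy chain, had 9725 and 7976 counts in KO and 3269 and 3597 in WT. This was a 2.48-fold difference between means of 199 and 80.4 CPM, with no overlap between groups (log2 fold change 1.31, SE 0.08, adjusted p = 7.37e-09). *Dync2li1*, the light intermediate chain, was the more abundant of the pair per length, at 6.89 CPM per kb in WT and 15.4 in KO. It had 1062 and 761 counts in KO and 388 and 392 in WT (log2 fold change 1.16, SE 0.11, adjusted p = 9.01e-07). Summed per length, both genes came to 29.5 and 25.9 CPM per kb in KO and 11.1 and 12.7 in WT. Of 4 further dynein-2 genes, the intermediate chains *Wdr34* (0.78) and *Wdr60* (0.66) were higher, while the light chains *Tctex1d2* (0.04) and *Dynlrb1* (-0.11) did not pass the test.

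Of the kinesin genes tested, 2 were higher, 1 was lower and 1 did not pass. *Kifap3*, the non-motor subunit that links kinesin-2 to its cargo, had 7458 and 5979 counts in KO and 3340 and 3441 in WT. It was the most abundant of these 4 tested genes per length and rose from 19.8 to 37.6 CPM per kb (log2 fold change 0.93, SE 0.07, adjusted p = 6.80e-08). The motor subunits moved less, with *Kif3a* higher by 0.49 (SE 0.07, adjusted p = 2.40e-05) and *Kif3b* at 50.5 and 47.7 CPM in KO and 45.8 and 44.8 in WT (log2 fold change 0.12, 95% interval -0.04 to 0.27). *Kif3c*, another motor subunit outside the 40, was at 0.002. *Kif3a* shares exon bases with *Il4* on the opposite strand. *Kif7*, a kinesin of the Hedgehog pathway at the tip of the cilium, was at 17.2 and 18.2 CPM in KO and 21.4 and 21.7 in WT. It was lower in both KO libraries (log2 fold change -0.28, SE 0.09, adjusted p = 0.00951), but without KO replicate 1 the value was -0.24 with an adjusted p of 0.103, and it shares exon bases with opposite-strand genes.

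The IFT-B core, the stable part of the outbound train, had 4 of 8 genes higher, 0 lower and a median log2 fold change of 0.26. The higher genes include the partners IFT81 and IFT74, which together carry tubulin into the cilium. *Ift81* had 3108 and 2588 counts in KO and 1440 and 1391 in WT, a 1.94-fold difference (log2 fold change 0.96, SE 0.07, adjusted p = 6.08e-08). *Ift74*, the most abundant of these 8 core genes per length in WT (20.2 CPM per kb), had 3869 and 3067 counts in KO and 2283 and 2318 in WT (log2 fold change 0.54, SE 0.07, adjusted p = 2.44e-05). Both KO libraries were above both WT libraries for this pair, and the change of *Ift81* exceeded that of *Ift74* in size, a difference that was not tested.

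Smaller differences of the core depended on single libraries or on the tool. *Ift27*, a small GTPase that works with the BBSome, was higher by 0.42 (SE 0.11, adjusted p = 0.00423), and by 0.36 with an adjusted p of 0.0653 without KO replicate 2. *Ttc30b*, coding for an IFT70 protein, was higher by 0.39 (adjusted p = 0.0123), but not past the threshold without KO replicate 1 (0.35, adjusted p = 0.102) or KO replicate 2 (0.42, adjusted p = 0.0557), nor with DESeq2 (0.36, adjusted p = 0.0771). Reads of *Ttc30b* may be split with its paralogs *Ttc30a1* (higher by 0.59) and *Ttc30a2*. The core genes *Ift46* (0.13), *Hspb11* (0.11), *Ift52* (0.10) and *Ift88* (0.003) did not pass. *Ift88*, a core protein without which cilia do not form, had 25.4 and 23.1 CPM in KO and 24.2 and 24.2 in WT, with an interval from -0.17 to 0.18, and it shares exon bases with an opposite-strand transcript. Its sign turned under 6 of the alternatives, never past the threshold. Of the further core genes listed, *Rabl5* was higher by 0.92.

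The peripheral IFT-B genes, whose proteins join the core and contact the motor, split into 4 higher and 2 lower. *Ift80* had 5733 and 4910 counts in KO and 2955 and 3143 in WT (log2 fold change 0.75, SE 0.07, adjusted p = 7.40e-07), with no overlap between the groups. *Cluap1* (0.47), *Ift172* (0.44) and *Traf3ip1* (0.28) were higher too, *Traf3ip1* with an adjusted p of 0.0105 that became 0.0984 at 0.25 without KO replicate 2 and 0.0743 with DESeq2. *Cluap1* shares exon bases with *Nat15* on the same strand and *Gm15537* on the opposite strand. *Ift20*, which also shuttles from the Golgi to the cilium, was the most abundant of the 39 genes per length in WT, at 31.0 CPM per kb against 25.2 in KO. It had 1876 and 1544 counts in KO and 1925 and 2118 in WT, and both KO libraries lay below both WT libraries in CPM (log2 fold change -0.30, SE 0.09, adjusted p = 0.00881). *Ift57*, a partner of IFT20, had 926 and 699 counts in KO and 1018 and 1002 in WT (log2 fold change -0.37, SE 0.09, adjusted p = 0.00303), and shares exon bases with an opposite-strand transcript. Without KO replicate 2 neither passed, at -0.26 (adjusted p = 0.0891) for *Ift20* and -0.28 (adjusted p = 0.0624) for *Ift57*.

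Among the ciliary GTPases, *Arl3*, which releases lipid-modified proteins inside the cilium, was higher and *Arl13b*, which activates it, did not pass the test. *Arl3* had 2021 and 1669 counts in KO and 1091 and 952 in WT, and rose from 29.0 to 50.5 CPM per kb, the highest level per length of the 39 genes in KO (log2 fold change 0.80, SE 0.08, adjusted p = 6.05e-07). *Arl13b* had 45.6 and 43.5 CPM in KO and 37.9 and 42.5 in WT (log2 fold change 0.15, 95% interval -0.02 to 0.32), and without WT replicate 2 it was 0.20 with an adjusted p of 0.0367. Among 6 further genes of this group, *Pde6d*, coding for a carrier of lipid-modified cargo, was higher by 0.80, and *Arl2bp*, coding for a partner of ARL2 and ARL3, was the 1 lower gene (-0.62). The basal body gene *Ofd1*, a part of the centriole's distal end with 5.13 CPM per kb in WT, had 1253 and 990 counts in KO and 1065 and 899 in WT. Its log2 fold change of 0.14 did not pass the test (SE 0.09, edgeR adjusted p = 0.162, 95% interval -0.04 to 0.32), and it shares exon bases with *Trappc2*. For the 10 genes that did not pass, the intervals ran from -0.36 to 0.35, so that changes as large as those of the 18 genes above 0.5 lie outside them.

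**Figure D4:**
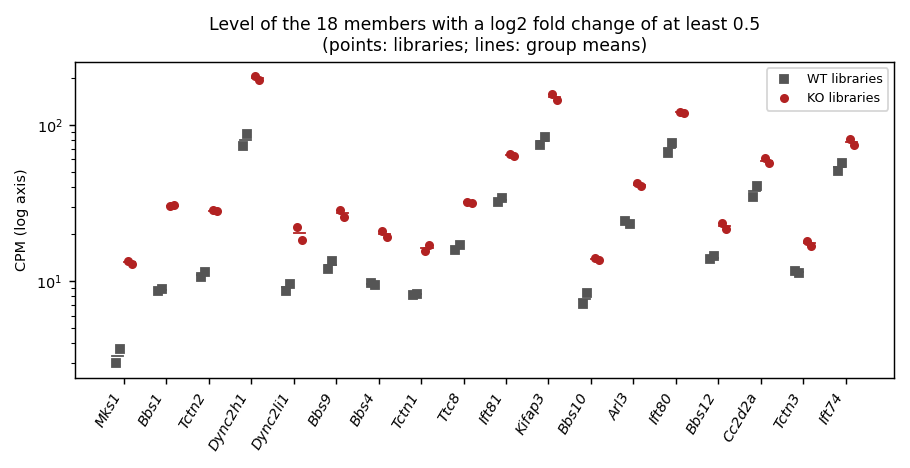
CPM (log axis) of the 18 cilium genes with a log2 fold change of at least 0.5, in order of that change, with grey squares for the 2 WT libraries, red circles for the 2 KO libraries and a line at each group mean. In every one of the 18 genes both red points lie above both grey points, from *Mks1* with means of 13.2 and 3.34 CPM to *Ift74* with 77.9 and 53.8.

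Per length of exon, the 39 genes were expressed like the typical gene in WT and above it in KO. Their median was 5.57 CPM per kb in WT, against 5.55 for all genes tested, and 8.09 in KO, against 5.77 for all genes. The genes that hold exon sequence in common with another annotated gene (8 of the 39) could have received reads of that gene. Whether HTSeq counted by strand was not stated in the sources used here. For *Cluap1* and *Bbs12* the shared bases include some with a same-strand gene, which counting by strand would not separate. Among the other 31 genes 21 were higher and 2 lower, with a median log2 fold change of 0.54.

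For 10 of the 39 genes (25.6%, against 16.3% of all genes tested) a protein-coding gene starts within 1000 bases on the opposite strand. Of these partner genes 2 were higher, 6 lower and 2 not past the test, against 34.3% higher and 32.5% lower of all genes tested. Whether partners moved with the cilium genes was not tested. *Dync2h1* was higher by 1.31, while *Dcun1d5*, 120 bases away, was at -0.49 (edgeR adjusted p = 1.04e-05). *Ift80* was higher by 0.75 and its partner *Smc4*, which codes for a condensin subunit, was at -0.23 (edgeR adjusted p = 0.0136). *Arl3* and *Sfxn2* were both higher, by 0.80 and 0.64, and *Bbs12* and *Cetn4*, which overlap, by 0.67 and 0.86. *Ift20* and *Tnfaip1*, whose starts lie 29 bases apart, were both lower, at -0.30 and -0.29.

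Beyond the 40 genes, 43 others belong to the same 9 groups. Of the 40 of these that were tested, 26 were higher, 3 lower and 11 not past, against 34.3% higher and 32.5% lower of all genes. Their median was 0.36, with a range from -0.62 to 1.27. The 10 tested genes of the basal body and cap, which template and tether the cilium, were mixed, with 5 higher and 1 lower (*Odf2*, -0.33). Of 7 genes listed for IFT-A and its adaptor *Tulp3*, 6 were present and tested. Of these 6, 3 were higher, *Ift140* (0.96), *Wdr19* (0.69) and *Wdr35* (0.53). The 3 lower ones were *Ift122* (-7.62), *Ttc21b* (-0.24) and the adaptor *Tulp3* (-0.20). Genes for taking down the cilium or setting its length were mixed, with 4 of 8 higher, led by *Nek8* (1.19), and 2 lower. The lower genes were *Aurka* (-0.81), a mitotic kinase that drives disassembly, and *Nek1* (-0.49).

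Among the transcription factors known to act on cilium genes, 4 of 7 tested were higher, 2 lower and 1 not past. Over all genes tested, 34.3% were higher and 32.5% lower. *Rfx3*, an RFX factor of ciliated cells, stood out with 123 and 119 CPM in KO and 14.8 and 17.4 in WT. This log2 fold change of 2.91 (SE 0.08, edgeR adjusted p = 4.50e-12) is larger than that of any of the 39 genes. *Rfx2* was low throughout, at 4.06 and 4.97 CPM in KO and 1.94 and 1.15 in WT (1.53), and *Rfx5*, known for MHC class II genes, was higher by 0.67. *Glis3*, a zinc finger factor found at cilia, was higher by 1.46. *Rfx1* was lower (-0.71) and *Rfx7* did not pass (0.20), so the RFX genes did not move as a family. *Foxj1*, the factor of motile cilia, had 19 and 6 counts in KO and 34 and 24 in WT. The part of these factors in the levels of the cilium genes was not tested.

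**Figure D5:**
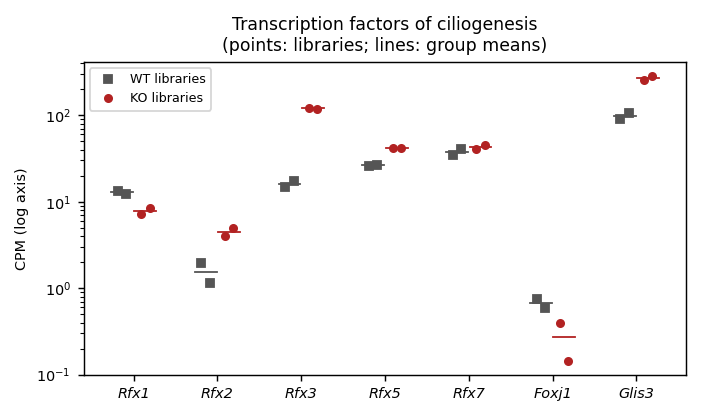
CPM (log axis) of 7 transcription factor genes known to act on cilium genes, with grey squares for the 2 WT libraries, red circles for the 2 KO libraries and a line at each group mean. *Rfx3* shows the widest gap, from 14.8 and 17.4 CPM in WT to 123 and 119 in KO, and *Foxj1* is under 1 CPM in every library.

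Markers of other cells and of growth moved as well. Of 12 proliferation genes 8 were lower in KO (32.5% of all genes), among them *Plk1* (-1.12), *Bub1* (-0.85) and *Ccnb1* (-0.56). *Mcm2* (0.45) and *Tyms* (0.16) were the 2 higher ones (34.3% of all genes). The summed level of the 12 genes was 2733 to 2841 CPM in the KO libraries and 3203 to 3209 in the WT libraries. Of 15 genes of multiciliated cells and motile cilia, 9 are in the table and 7 were tested, with 4 higher and 1 lower (*Foxj1*). The higher ones were led by *Dnaic2* (2.74), *Rsph1* (2.33) and *Ccdc39* (1.91). *Dnaic2* rested on 37 and 40 counts in KO and 6 and 5 in WT, and *Rsph1* on 27 and 21 against 4 and 5. The sum of the list was 12.98 to 14.5 CPM in KO and 5.04 to 5.49 in WT. Most of the KO sum was *Ccdc39* alone, at 9.72 and 7.81 CPM in KO and 2.05 and 2.64 in WT. *Ccdc39* shares exon bases with *Ttc14* on the opposite strand and could have received reads of that gene. The dynein gene *Dnaic1* (at most 4 counts) and *Tekt1* (at most 1 count) were at or near 0 in every library.

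Of 12 fibroblast genes 7 were lower in KO, led by *Dcn* (-7.70), *S100a4* (-2.28) and *Col1a1* (-1.32), and 1 was higher (*Prrx1*, 1.92). Their sum was 13341 to 14457 CPM in KO and 21479 to 23743 in WT. Neural genes summed to 136 to 141 CPM in KO and 375 to 459 in WT, nearly all of it *Nes*, and epithelial genes to 3.25 to 3.56 in KO and 28.1 to 28.5 in WT, nearly all of it *Krt19* in WT. *Krt19* was lower (-6.53), whereas *Cdh1*, the epithelial cadherin, was higher, with 142 and 107 counts in KO and 10 and 9 in WT (log2 fold change 3.64, edgeR adjusted p = 1.18e-07). Endothelial genes (1.54 to 1.70 and 1.10 to 1.32 CPM), blood genes (6.46 to 6.79 and 3.95 to 4.58), neural crest and glial genes (2.64 to 2.69 and 0.893 to 1.44) and skeletal muscle genes (at most 0.146) were low in both genotypes. The part of these cell types, and of growth, in the levels of the cilium genes was not tested.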

How the data were processed

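Total RNA of 2 KO and 2 WT MEF samples was freed of ribosomal RNA and sequenced as stranded single-end 50 base reads. The authors mapped the reads to mm9 with TopHat2 and Bowtie (base calling with CASAVA 1.8.2) and deposited raw counts per gene from HTSeq 0.5.4p3 on Ensembl release 67; the 4 raw count columns were used. The deposited table also holds normalized values and the authors' comparison (log2 ratios, p-values), not used here. Whether HTSeq counted by strand was not stated in the sources used here.

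The whole table was fitted with edgeR 4.0.16 (R 4.3.3). After filterByExpr, which left 15538 genes, and TMM scaling, KO was compared with WT by the two-sided quasi-likelihood test without further covariates. P-values were adjusted by the Benjamini-Hochberg method over all genes tested, with a threshold of 0.05. The standard error is the absolute log2 fold change over the square root of F. CPM per kb divides CPM by the length of all exons of a gene in the mm9 annotation, which holds 23393 of the 23537 genes. The fit was tested on simulated data in which far fewer genes changed than passed the test here. That run therefore does not cover TMM scaling where changes are this common. An exact permutation test of 2 against 2 libraries cannot give a two-sided p below 0.333. Alternatives were other scalings and filters, DESeq2 1.42.0, limma-voom (limma 3.58.1), an adjusted p of 0.01, the replicate number as a block and each library left out. Tables and figures were made in Python 3.11.15.

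All 40 genes are named by role. Those past the test with a log2 fold change of at least 0.5 in size, and the most abundant of the 40 per length in each role, are given in full, and other lists by counts and up to 3 genes a direction. Cilium genes named beyond these were chosen after their values were seen. The 40 genes, the roles and the lists were chosen with earlier results of these data known. Some genes of the lists are not reported here.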

Additional observations from a re-analysis of the deposited data

How the results depend on the processing

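The count of cilium genes higher in KO was 25, and 22 to 32 under the alternatives run on all of them. It was 21 among the 31 genes without exon overlap, an alternative added after seeing the data. The count of lower genes moved from 4 to 1 with library totals, and to 2 among those 31 genes. The median log2 fold change of 0.47 moved to 0.62 with library totals. With each library left out in turn, 22 to 26 genes were higher, 2 to 5 lower and the median was 0.43 to 0.52. The sign of *Ift88* turned to -0.019 with RLE size factors, -0.019 without a filter, -0.024 with DESeq2, -0.065 without KO replicate 1, -0.0010 without WT replicate 1 and -0.031 without WT replicate 2, and that of *Hspb11* to -0.042 without KO replicate 1 (up to 0.069 for *Ift88* and 0.24 for *Hspb11* without KO replicate 2), all short of the threshold, and the cause was not tested. With the replicate number as a block, 25 genes were higher, 4 lower and the median was 0.47, so the block changed no call of a cilium gene. Whether equal numbers pair the samples was not stated in the sources used here. Deviations of same-numbered libraries correlated at -0.0287 across genes, a single value from 2 libraries a genotype that cannot settle this. Over all single genes and alternatives, 471 values kept direction and side of the threshold, 16 lost the call, 13 gained it and 7 turned sign.

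With 2 libraries a genotype the spread of each gene is borrowed from all genes, and the 95% intervals of the 10 genes that did not pass ran from -0.36 to 0.35. Of the higher genes *Ttc30b*, *Traf3ip1*, *Bbs2* and *Ift27*, and of the lower genes *Ift20*, *Ift57* and *Kif7*, lost their call under at least 1 alternative. An adjusted p of 0.01 kept 22 higher and 4 lower genes. Reads of overlapping genes and of paralogs could not be separated here, and RNA levels do not count cilia.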
